A study of Mus musculus with 6 samples.

Results

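The uncoupling proteins Ucp1, Ucp2 and Ucp3 were followed in inguinal white adipose tissue (iWAT), the subcutaneous fat of the groin, of mice that lack the zinc transporter ZIP13 (gene Slc39a13) and of their littermates. The 3 genes were chosen by name, and each probe annotated to one of their RefSeq transcripts was used. Ucp1 (NM_009463) and Ucp2 (NM_011671) have 1 probe each and Ucp3 (NM_009464) has 2, so the genes are covered by 4 of the 55681 probes of the array and are 3 of the 15307 genes tested. RNA from wild-type (WT) and Zip13-KO animals was measured on 6 Agilent 1-colour arrays, 3 per genotype. In this format 1 labelled RNA is put on each array and spot brightness, in intensity units, reports transcript amount. The sample titles number the replicates without saying that each is a separate mouse. All mice were on the C57BL/6J background after at least 7 generations of backcrossing, received powdered food because the mutants have tooth defects, and were 10 weeks old in the study's description of the arrays. The labels name a standard and a high-fat food without saying which one these mice ate. In the Zip13-KO mice a Neo cassette replaces exons 6 to 8 of the gene in every tissue, so the arrays compare whole-body mutants with WT littermates that carry no cassette. Each sample is a piece of whole tissue.

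Uncoupling proteins are carriers of the inner mitochondrial membrane. UCP1 is the defining protein of brown and beige adipocytes: when fatty acids activate it, protons flow back into the matrix without ATP synthesis and the energy of respiration is released as heat. Its transcription is raised by beta-adrenergic receptors through cAMP, by nuclear receptors of the PPAR, retinoid and thyroid hormone families and by the coactivator PGC-1alpha. UCP2 and UCP3 do not make heat on that scale. UCP2 is found in many tissues and is prominent in macrophages and lymphocytes, whereas UCP3 is known from skeletal muscle and brown fat and rises with fatty acid supply. Ucp3 and Ucp2 lie next to each other on chromosome 7, in the same direction, and Ucp1 lies on chromosome 8.

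The 3 promoters are shown to describe the motif matches near the start of these genes, of which 2 are neighbours. Each is the RefSeq stretch from 250 bases before to 50 bases after the gene's start in GRCm38.p6, written 5′ to 3′. Capitals mark every match, on either strand, to 7 motifs: the TATA box in the form TATAAA or in the form TATATA, the cAMP response element half-site TGACG, the nuclear receptor half-site AGGTCA, the GC box GGGCGG, the CCAAT box and the E-box CACGTG.
Ucp1 promoter (chr8:83290098-83290397, + strand): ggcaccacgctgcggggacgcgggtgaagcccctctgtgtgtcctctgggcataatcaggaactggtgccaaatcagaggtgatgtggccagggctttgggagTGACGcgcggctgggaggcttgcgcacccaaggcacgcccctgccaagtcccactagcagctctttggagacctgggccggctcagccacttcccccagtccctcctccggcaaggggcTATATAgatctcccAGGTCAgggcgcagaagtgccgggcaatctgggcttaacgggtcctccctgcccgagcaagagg
Ucp2 promoter (chr7:100493108-100493407, + strand): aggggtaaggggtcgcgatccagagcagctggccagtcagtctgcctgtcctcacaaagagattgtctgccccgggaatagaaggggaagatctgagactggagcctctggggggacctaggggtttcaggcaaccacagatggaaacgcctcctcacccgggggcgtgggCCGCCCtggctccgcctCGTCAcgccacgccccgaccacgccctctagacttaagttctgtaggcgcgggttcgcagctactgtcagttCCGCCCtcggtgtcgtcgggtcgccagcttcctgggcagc
Ucp3 promoter (chr7:100472741-100473040, + strand): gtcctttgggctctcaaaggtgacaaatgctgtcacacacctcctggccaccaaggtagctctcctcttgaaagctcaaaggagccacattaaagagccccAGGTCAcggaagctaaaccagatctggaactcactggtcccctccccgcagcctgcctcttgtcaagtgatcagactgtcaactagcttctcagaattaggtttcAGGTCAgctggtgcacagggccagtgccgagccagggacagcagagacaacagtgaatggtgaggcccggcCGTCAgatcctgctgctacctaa

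The Ucp1 stretch holds TATATA from base -28, TGACG from base -147 and AGGTCA from base -14, each once, counted from the gene's start. The Ucp2 stretch holds TGACG on the other strand at -62 and GGGCGG on the other strand at -79 and 11, and the Ucp3 stretch holds AGGTCA at -149 and -44 and TGACG on the other strand at 28. TATATA was found in the Ucp1 stretch only, GGGCGG in the Ucp2 stretch only, and the other TATA form, the CCAAT box and the E-box in none of these 3. Of the 32851 RefSeq promoters of the same length, 5.67% hold TATATA, 20.8% TGACG, 16.3% AGGTCA and 35.7% GGGCGG. A match is a description of these letters and was not tested as a binding site.

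Ucp1 had the largest fitted rise of all genes tested. The neighbouring genes Ucp2 and Ucp3 were both lower by their brighter or single probe, and the second probe of Ucp3 was higher. Between genotypes, Ucp1 rose by 5.16 on the log2 scale, Ucp2 fell by 0.81 and Ucp3 fell by 0.66 with its brighter probe, while the dimmer Ucp3 probe rose by 1.46. All 3 genes passed the threshold, which was a Benjamini-Hochberg adjusted p under 0.05 from limma with a fold change over 1.5, or 0.58 in log2 units. Among all genes tested, 10.3% were called higher and 8.38% lower, 18.7% in either direction. Among the 33039 probes kept, 8.34% were called higher and 7.12% lower. Every Zip13-KO array lay above every WT array for Ucp1 and below for Ucp2 and the brighter Ucp3 probe, as was so for 29.2% and 25.9% of all genes. All 4 probes were well above background on the 6 arrays and none was saturated or marked as an outlier. Slc39a13, the targeted gene, was far lower on the arrays labelled Zip13-KO. It was 10.96 ± 0.30 in WT and 6.63 ± 0.15 in Zip13-KO iWAT (normalized log2 intensity, SD, n = 3), a change of -4.33 (SE 0.17, limma adjusted p = 0.00128). Whether its probe lies in the deleted exons was not analysed here.

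**Figure D1:**
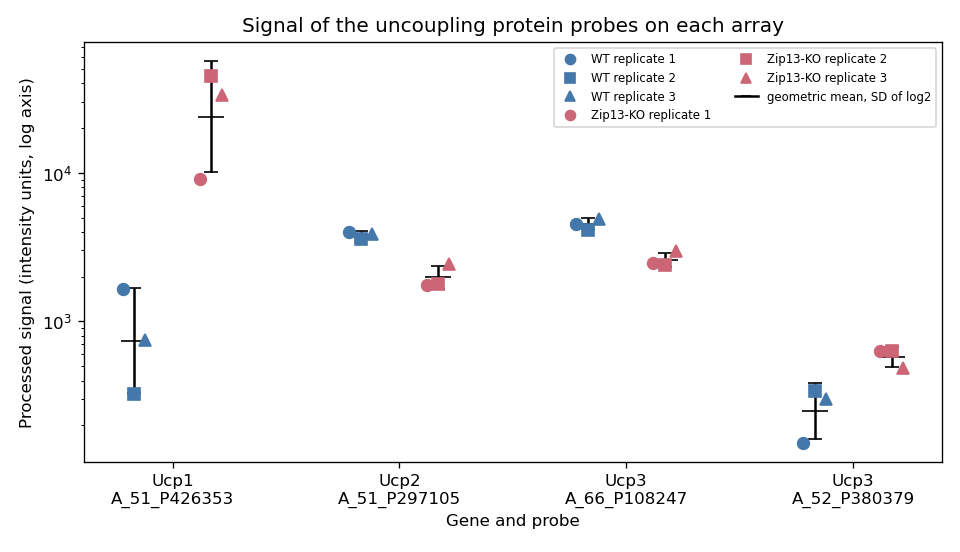
Processed signal of each uncoupling protein probe on each array, in intensity units on a log axis, with the probes along the horizontal axis. Points are arrays (blue WT, red Zip13-KO, shape for the replicate) and bars give the geometric mean and SD of the log2 signal of 3 arrays per genotype. Ucp1 is far higher on all Zip13-KO arrays, Ucp2 and the brighter Ucp3 probe (A_66_P108247) are lower on all of them, and the dimmer Ucp3 probe (A_52_P380379) is higher on all of them.

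Ucp1, the proton carrier of thermogenic adipocytes, was measured by probe A_51_P426353. Its processed signal was 1657, 325.2 and 751.5 intensity units in WT replicates 1, 2 and 3. In Zip13-KO replicates 1, 2 and 3 it was 9023, 44921 and 33456 intensity units. The genotypes did not overlap: the lowest Zip13-KO array, replicate 1, lay 2.51 above the highest WT array, also a replicate 1, on the normalized log2 scale. The scanner's error for these spots, which covers the spot alone, was about 10% of the signal. On the normalized log2 scale Ucp1 was 9.43 ± 1.24 in WT and 14.59 ± 1.23 in Zip13-KO iWAT (SD, n = 3), a rise of 5.16 (SE 0.82, limma adjusted p = 0.00883). That is 35.7-fold, with a 95% interval from 9.13-fold to 139-fold in the limma fit of all kept probes. The fitted rise ranked 1 of 15307 genes. Ucp1 was not tested against other large rises such as those of Elovl3 (4.84) and Fabp3 (4.77). With 3 arrays per genotype the exact permutation test of a single gene cannot go below p = 0.1 (two-sided), and it gave 0.1 for each of the 4 probes.

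Ucp1 also differed widely between arrays of one genotype. The highest WT signal was 5.09 times the lowest, and the highest Zip13-KO signal was 4.98 times the lowest. Its SD on the log2 scale was larger than that of 99.54% of genes in WT, where the median gene had an SD of 0.16, and larger than that of 99.76% of genes in Zip13-KO iWAT, where the median was 0.10. Ucp2 and the brighter Ucp3 probe were ordinary in WT, with an SD above that of 38.57% and 44.44% of genes, and wider than most in Zip13-KO iWAT, above 86.2% and 72.0%. A wide spread was not particular to Ucp1. Fabp3 ran from 9.24 to 12.67 in Zip13-KO iWAT and Elovl3 from 2.36 to 4.63 in WT (normalized log2 intensity).

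Many other markers of brown and beige adipocytes rose with Ucp1, but not all of them. Of a list of 28, 26 were tested, 19 were called higher and none lower, and the median change was 1.35 on the log2 scale against -4e-04 over all genes tested. Elovl3, an elongase of long fatty acids in brown fat, rose by 4.84 (SE 0.72, adjusted p = 0.00782), with 2 of 3 WT arrays well above background, and by 2.62 with normexp background correction. Fabp3, a fatty acid binding protein of muscle and brown fat, rose by 4.77 (SE 0.98, adjusted p = 0.0160). Cidea, a lipid droplet protein, rose by 2.25 (SE 0.30, adjusted p = 0.00668), and Dio2, which makes active thyroid hormone, rose by 2.19 (SE 0.44, adjusted p = 0.0146). Cited1 and Tmem26, which are used as beige adipocyte markers, did not rise: Cited1 changed by -1.31 (adjusted p = 0.0523) and Tmem26 by -0.94 (adjusted p = 0.112), both with every Zip13-KO array below every WT array. Cited1 was called lower under 8 of 16 alternatives, among them the other scalings and background corrections and the deposited table. Tbx1, Tnfrsf9, Hoxc9, Zic1 and Lhx8 changed by less than the 1.5-fold limit and were not called either. Fgf21 was well above background on 2 Zip13-KO and 0 WT arrays and Bmp8b on none, and neither was tested. Leaving out Zip13-KO replicate 2 or 3 ended the call of Fabp3 (4.06 and 4.46).

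The Zip13-KO arrays were ordered alike for part of this list. Ucp1 was highest in replicate 2, then 3, then 1, an order that 10.9% of all genes tested had, and 11 of the 26 tested brown and beige markers (42.3%) had it too. Replicate 1 was the lowest Zip13-KO array for 12 of the 26 (46.2%), against 27.3% of all genes, and it was so too for 13 of 14 skeletal muscle markers (92.9%) and 7 of 10 lymphocyte markers (70.0%). Elovl3 was 7.77, 9.53 and 8.66 on the normalized log2 scale in Zip13-KO replicates 1, 2 and 3, and Dio2 was 7.45, 8.96 and 8.64. In WT the order of Ucp1, highest in replicate 1 and lowest in replicate 2, was found in 3 of the 26 (11.5%) and in 14.3% of all genes. Fabp3 was the only gene of the list with the order of Ucp1 in both genotypes, which 1.44% of all genes had. Its normalized log2 intensity was 7.60, 5.40 and 6.50 in WT and 9.24, 12.67 and 11.88 in Zip13-KO replicates 1, 2 and 3. Its deviations from the genotype means correlated with those of Ucp1 at Pearson r = 0.97 over 6 arrays, the highest of the list, against 0.86 for Elovl3, 0.18 for Cidea and -0.82 for Hoxc9, the lowest. Of the 26, 15 correlated above 0 and 11 below, among them P2rx5 (-0.63), Cited1 (-0.62) and Otop1 (-0.29). In other lists described below, all 10 adipocyte markers (-0.85 to -0.64) and 15 of 22 activators of Ucp1 correlated below 0. All 9 stromal, 16 of 19 myeloid, 9 of 10 lymphocyte and 11 of 14 muscle markers correlated above 0. The share of all genes that correlated above 0 is not given here. Genes of a list can vary together, so its members are not separate observations. These orders and correlations are descriptions of 6 arrays that share 1 slide.

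**Figure D2:**
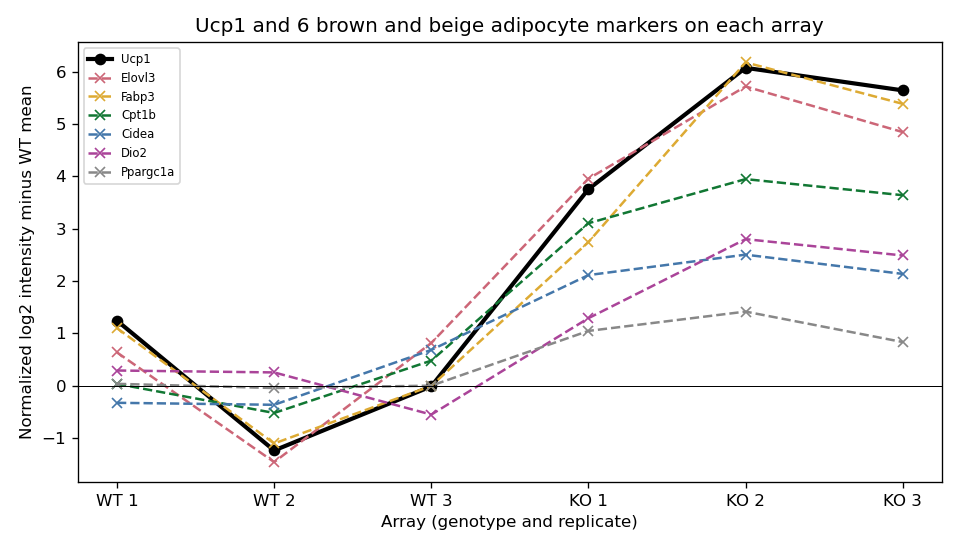
Normalized log2 intensity minus the WT mean (vertical axis) of Ucp1 and 6 brown and beige adipocyte markers on each of the 6 arrays (horizontal axis). Each point is an array and lines only join the points of a gene. Ucp1, Elovl3, Fabp3, Cpt1b, Cidea, Dio2 and Ppargc1a all lie above the WT mean on all 3 Zip13-KO arrays, and Ucp1 and Fabp3 share the order of the arrays in both genotypes.

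Genes that act on Ucp1 were described by role. Some genes stand in more than 1 list, among them Ppargc1a, Ppara, Pparg, Cpt1b, Plin5 and Slc25a20. The counts of different lists are therefore not independent. Of 22 transcriptional activators of Ucp1, 8 were called higher and none lower, with a median change of 0.45. Ppara, the PPAR of fatty acid oxidation, rose by 2.03 (SE 0.33, adjusted p = 0.00913), and Ppargc1b, a coactivator related to PGC-1alpha, by 1.19 (SE 0.23, adjusted p = 0.0137). Ppargc1a, the gene of PGC-1alpha itself, rose by 1.10 (SE 0.15, adjusted p = 0.00696). Prdm16, which sets brown and beige identity, rose by 0.93 (SE 0.28, adjusted p = 0.0462), and Pparg, the master factor of adipocytes, by 1.13 (SE 0.22, adjusted p = 0.0141). Esrrg, Esrra and Cebpa made up the 8. Cebpb, a transcription factor that acts with PRDM16, was higher by 0.46 with an adjusted p of 0.0151, under the 1.5-fold limit. Without Zip13-KO replicate 1 the count was 3 instead of 8, and Prdm16, Pparg and Ppargc1b were among those no longer called. Prdm16 changed by 0.60 without WT replicate 1 and was also no longer called without Zip13-KO replicate 2, Zip13-KO replicate 3 or WT replicate 3.

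Of 8 transcriptional repressors of Ucp1, only Zfp423, which holds adipocytes in the white state, was called higher, at 0.68 (SE 0.09, adjusted p = 0.00671), and the median change of the 8 was 0.07. Of 17 genes of beta-adrenergic and cAMP signalling, 6 were called higher and none lower, with a median of 0.27. Adrb1, a beta-adrenergic receptor, rose by 1.58 (SE 0.43, adjusted p = 0.0349) and Prkar2b, the regulatory subunit of protein kinase A of fat, by 1.24 (SE 0.19, adjusted p = 0.00855). Adcy3, Adcy5 and Adcy6, which make cAMP, and Prkaca, a catalytic subunit of protein kinase A, were the other called genes. Adrb3, the main beta-adrenergic receptor of mouse adipocytes, was 0.99 higher without passing the threshold (adjusted p = 0.0782). Without Zip13-KO replicate 1 the count was 3 instead of 6. Adrb1 was not called without any one of the Zip13-KO arrays, and its change was 0.93 as the mean of its probes.

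Among genes that release fatty acids and carry them to the mitochondrion, which feed and activate UCP1, 13 of 17 were called higher and 1 lower, with a median change of 0.94. Cpt1b, the muscle and brown fat form of carnitine palmitoyltransferase 1, rose by 3.56 (SE 0.31, adjusted p = 0.00441), and Plin5, a lipid droplet protein of oxidative tissues, by 2.26 (SE 0.34, adjusted p = 0.00776). The liver form Cpt1a fell by 0.71 (SE 0.16, adjusted p = 0.0215). The 2 forms of that enzyme thus moved in opposite directions. The call of Cpt1a was lost without WT replicate 1 or without Zip13-KO replicate 1 or 2, where it changed by -0.53, -0.70 and -0.66. Without Zip13-KO replicate 2 or 3 the list's count of higher genes was 8.

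Ucp2 was measured by probe A_51_P297105. Its processed signal was 4020, 3591 and 3902 intensity units in WT replicates 1, 2 and 3, and 1768, 1792 and 2438 in the Zip13-KO replicates. All Zip13-KO arrays lay below all WT arrays, by 0.40 at the closest on the normalized log2 scale, and Zip13-KO replicate 3 was the highest of its genotype. On that scale Ucp2 was 11.83 ± 0.12 in WT and 11.03 ± 0.25 in Zip13-KO iWAT (SD, n = 3). It fell by 0.81 (SE 0.15, limma adjusted p = 0.0116) or 1.75-fold. The limma fit of all kept probes gave a 95% interval of the log2 change from -1.17 to -0.45. In bulk tissue, fewer cells of a type and less RNA per cell cannot be told apart.

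Macrophages are a known site of Ucp2, and their markers moved the same way. Of 19 markers of macrophages and other myeloid cells, 18 were called lower and all 19 changed below 0, with a median of -1.26. Fcgr1, an IgG receptor, fell by 2.57 (SE 0.16, adjusted p = 0.00292). Cd68, a lysosomal protein of macrophages, fell by 1.87 (SE 0.28, adjusted p = 0.00776), and Adgre1, which encodes the classical macrophage surface antigen of the mouse, fell by 1.64 (SE 0.29, adjusted p = 0.0110). Ptprc, the leukocyte antigen CD45, fell by 0.61 (SE 0.11, adjusted p = 0.0104) and was under the 1.5-fold limit with each of the other scalings and backgrounds tried and with the deposited table. The mean level of the list ran from 12.35 to 12.72 in WT and from 11.13 to 11.40 in Zip13-KO iWAT. Replicate 3 was the highest of the Zip13-KO arrays, as for Ucp2. It was so too for the lymphocyte, muscle, endothelial and stromal markers, but not for the adipocyte and mammary markers. In WT both the myeloid list and Ucp2 were highest in replicate 1. The list was lowest in WT replicate 3 (12.35) and Ucp2 in WT replicate 2 (11.72). All 19 were well above background on every array. The part of myeloid cells in the fall of Ucp2 was not tested. Lymphocyte markers were all below 0, with a median of -0.40, and limma called none of the 10 past both thresholds, while 8 had an unadjusted p under 0.05. Over all 15307 genes tested, 7217 had an unadjusted limma p under 0.05.

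Ucp3 was read by 2 probes annotated to the same transcript, and they disagreed. The brighter probe, A_66_P108247, had a processed signal of 4538, 4149 and 4921 intensity units in WT replicates 1, 2 and 3, and of 2460, 2388 and 2955 in the Zip13-KO replicates. Its Zip13-KO arrays all lay below the WT arrays, by 0.31 at the closest. It was 12.07 ± 0.14 in WT and 11.41 ± 0.16 in Zip13-KO iWAT on the normalized log2 scale (SD, n = 3). It fell by 0.66 (SE 0.12, limma adjusted p = 0.0115) or 1.58-fold. The limma fit of all kept probes gave a 95% interval from -0.96 to -0.37.

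The dimmer Ucp3 probe, A_52_P380379, had a processed signal of 151.2, 337.9 and 298.7 intensity units in WT replicates 1, 2 and 3, and of 629.7, 636.6 and 485.2 in the Zip13-KO replicates. Its Zip13-KO arrays all lay above the WT arrays, by 0.77 at the closest, and the lowest WT array was replicate 1. The raw spot was 5.91 to 11.7 times its local background in WT and 15.3 to 23.8 times in Zip13-KO iWAT. It was 7.83 ± 0.59 in WT and 9.29 ± 0.23 in Zip13-KO iWAT (SD, n = 3), a rise of 1.46 (SE 0.30, limma adjusted p = 0.0201 over all probes) or 2.74-fold, with a 95% interval from 0.73 to 2.19. Without Zip13-KO replicate 1 or 2 the adjusted p was 0.0605 and 0.0589, with changes of 1.40 and 1.38.

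Of 4138 genes with more than 1 kept probe, Ucp3 was the 1 gene (0.0242%) whose probes were called in opposite directions. The brighter probe less the dimmer one changed by -2.12 between genotypes, with no overlap of the arrays. When the probes were averaged, Ucp3 changed by 0.40 (adjusted p = 0.0710), so the direction given for Ucp3 depends on the probe. Both probes carry the same transcript name, and which bases of it each one binds was not analysed here.

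The brighter Ucp3 probe followed Ucp2 from array to array. Their normalized log2 intensities correlated at r = 0.99 over the 6 arrays and their deviations from the genotype means at r = 0.90. By the correlation over all arrays, which holds the difference between genotypes, Ucp2 ranked 51 of 15306 genes for the brighter Ucp3 probe, and Ucp3 ranked 38 for Ucp2. By the deviations the ranks were 283 and 252. The dimmer Ucp3 probe ran against Ucp2, with r = -0.95 over all arrays and -0.71 for the deviations. Of the tested genes on either side of the pair, C2cd3, the tested gene before Ucp3, changed by -0.41 (adjusted p = 0.140), Ppme1 before it by 0.22, Dnajb13, the tested gene after Ucp2, by 0.26 (adjusted p = 0.567) and Coa4 by -0.22. None was called, and their differences from Ucp2 and Ucp3 were not tested.

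**Figure D3:**
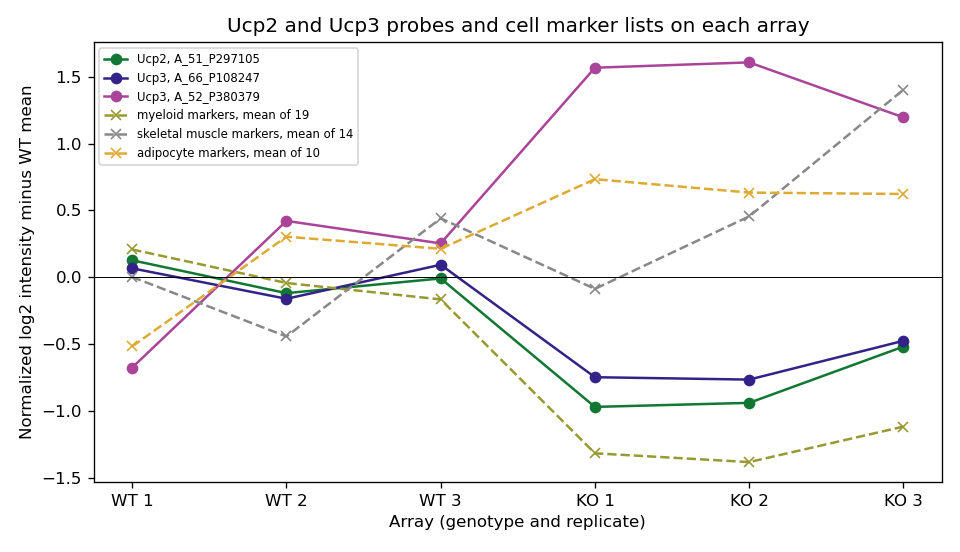
Normalized log2 intensity minus the WT mean (vertical axis) of the Ucp2 probe, both Ucp3 probes and the mean of 3 cell marker lists on each of the 6 arrays (horizontal axis). Each point is an array and lines only join the points of a series. Ucp2 and the brighter Ucp3 probe fall together by 0.47 to 0.97 on the Zip13-KO arrays, as the myeloid markers do by 1.12 to 1.38, whereas the dimmer Ucp3 probe rises by 1.20 to 1.61 and the muscle markers overlap between genotypes.

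Skeletal muscle is the main known site of Ucp3, and muscle markers varied between pieces of tissue. The mean of 14 tested markers was 7.61 to 8.49 in WT and 7.97 to 9.45 in Zip13-KO iWAT, so the genotypes overlapped, and all 14 were well above background. Ckm, the creatine kinase of muscle, was 1.15 higher (adjusted p = 0.320) and Acta1, skeletal actin, 0.43 higher (adjusted p = 0.448), and only Myl1, a myosin light chain, was called, at 1.01 (SE 0.26, adjusted p = 0.0299). Its call was lost without any one of the Zip13-KO arrays. The muscle markers were highest in Zip13-KO replicate 3, the array on which the dimmer Ucp3 probe was lowest of its genotype and the brighter one highest. In WT, muscle markers were highest in replicate 3 and lowest in replicate 2, as for the brighter probe, but in Zip13-KO iWAT they were lowest in replicate 1 (7.97) and the brighter probe was lowest in replicate 2 (11.31, against 11.32 in replicate 1). The median change of the 14 markers was 0.73, opposite in sign to the brighter probe. The part of muscle in the values of either Ucp3 probe was not tested.

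Fasting genes controlled by PPARs often accompany Ucp3. Of 15 such genes, 8 were called higher and 1 lower, with a median change of 0.99. Besides Fabp3, the largest called rise was that of Hadhb, the beta subunit of the mitochondrial trifunctional protein, at 1.36 (SE 0.19, adjusted p = 0.00689). The called fall was that of Cpt1a. Angptl4, an inhibitor of lipoprotein lipase that fasting induces, changed by -0.05 and was not called. Of the 15 genes, 13 changed above 0 and 2 below. The dimmer Ucp3 probe rose and the brighter one fell, and the link of either probe with this list was not tested.

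The changes of the 3 genes were compared with each other by the within-array difference of their probes. The change of Ucp1 exceeded that of Ucp2 by 5.97 and that of Ucp3 (brighter probe) by 5.82 on the log2 scale, without overlap, with an exact permutation p of 0.1 each, the smallest this design allows, and 0.15 adjusted over 3 pairs. The change of Ucp2 less that of Ucp3 was -0.15, the arrays overlapped, and the exact permutation p was 0.2. With the dimmer Ucp3 probe, Ucp1 exceeded it by 3.70 and Ucp2 fell short of it by 2.26, again without overlap (exact permutation p = 0.1, adjusted over 6 pairs of probes 0.12).

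Most other mitochondrial carriers related to the uncoupling proteins changed by less than the 1.5-fold limit. Of 10, 9 were tested, 2 were called higher and none lower, with a median of 0.28. Slc25a20, the carnitine-acylcarnitine carrier, rose by 1.30 (SE 0.12, adjusted p = 0.00444) and Slc25a10, the dicarboxylate carrier, by 0.90 (SE 0.24, adjusted p = 0.0327). The ADP/ATP carriers Slc25a4 and Slc25a5, which also leak protons, were 0.26 and 0.41 higher and below the 1.5-fold limit. The closest relatives, Slc25a27 (UCP4), Slc25a14 (UCP5) and Slc25a30, changed by 0.07, -0.08 and -0.19 and were not called. Slc25a10 was not called without any one of the Zip13-KO arrays.

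Antioxidant genes were included since UCP2 and UCP3 are linked to mitochondrial oxidants. Of 15, 5 were called higher and 1 lower, with a median of 0.20. Sod2, the mitochondrial superoxide dismutase, rose by 0.77 (SE 0.17, adjusted p = 0.0181) and Prdx3, the mitochondrial peroxiredoxin, by 0.76 (SE 0.14, adjusted p = 0.0120), whereas Hmox1, heme oxygenase of macrophages and stressed cells, fell by 2.20 (SE 0.39, adjusted p = 0.0110). Without Zip13-KO replicate 1 or 2 the count of higher genes was 3, and Sod2 was then not called.

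**Figure D4:**
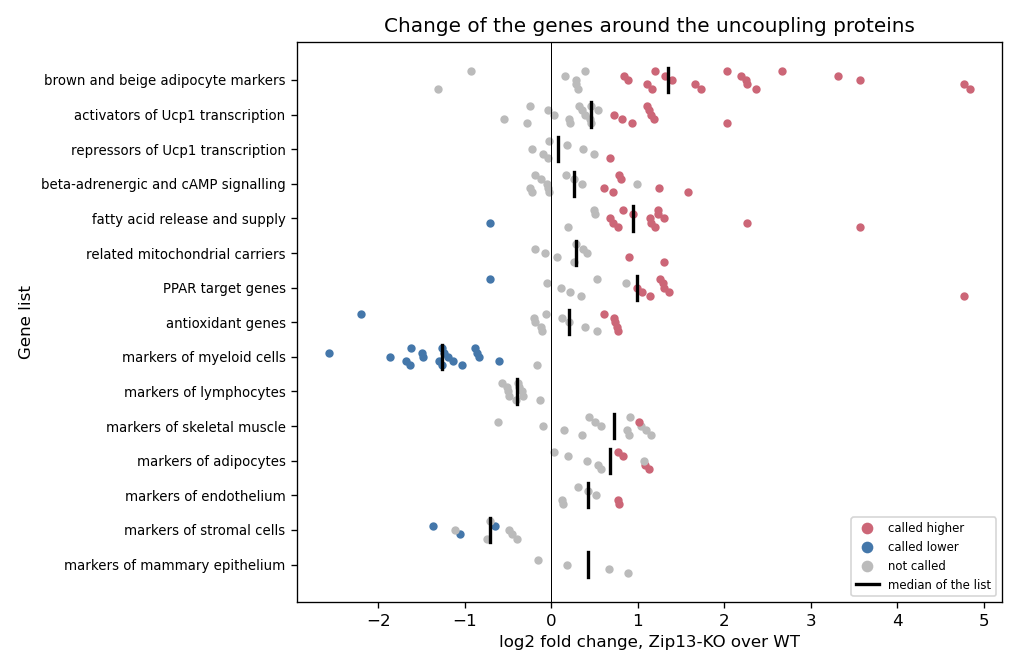
log2 fold change, Zip13-KO over WT (horizontal axis), of the tested genes of 15 lists (vertical axis). Each point is a gene (red called higher, blue called lower, grey not called) and black bars are the medians. The brown and beige markers have a median of 1.35 and the myeloid markers of -1.26, while the repressors of Ucp1 lie around 0.07.

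The remaining cell types were checked in the same tissue pieces. All 10 adipocyte markers changed above 0, with a median of 0.67, and 4 were called higher, among them Pparg and the glucose transporter Slc2a4 (1.08, SE 0.29, adjusted p = 0.0337), while Adipoq, the gene of adiponectin, was 0.41 higher (adjusted p = 0.0499) and below the 1.5-fold limit. The mean adipocyte marker level was 13.99 in WT replicate 1 against 14.81 and 14.72 in WT replicates 2 and 3, and 15.13 to 15.24 in Zip13-KO iWAT. The dimmer Ucp3 probe was lowest in the same WT replicate. So were the mean levels of the lymphocyte and endothelial markers and of several gene lists, among them the activators of Ucp1 and the fatty acid genes. The myeloid, stromal and mammary markers were highest there. No adipocyte marker was called without Zip13-KO replicate 1, where 6 of the 10 had an unadjusted p under 0.05 by limma, and 1 was called without replicate 2 or 3 and 2 without WT replicate 1 or 3. Of 9 stromal markers, all were below 0 and 3 were called lower, led by Ly6a at -1.37 (SE 0.29, adjusted p = 0.0174) and Dpp4 at -1.05 (SE 0.25, adjusted p = 0.0227). That count was 8 without WT replicate 3, 1 without WT replicate 2 and 0 without Zip13-KO replicate 1 or 2, where 3 and 2 had an unadjusted p under 0.05. Of 7 endothelial markers, 2 were called higher, Cldn5 at 0.78 (SE 0.19, adjusted p = 0.0232) and Cdh5 at 0.77 (SE 0.10, adjusted p = 0.00634). Of 8 markers of mammary epithelium, 4 were tested and limma called none, with 1 at an unadjusted p under 0.05. In the limma fit of all arrays, 7217 of the 15307 genes tested had such a p. For the fits without an array the number over all genes is not given here. The milk protein genes Csn2, Csn3 and Wap did not pass the filter. The part of these cells in the changes of the uncoupling proteins was not tested.

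On chromosome 8, the tested genes around Ucp1 did not change in one direction. Tbc1d9, directly before it, fell by 0.68 (SE 0.13, adjusted p = 0.0126), and Elmod2, directly after it, rose by 0.62 (SE 0.10, adjusted p = 0.00948). Scoc, the next one, rose by 0.61 (SE 0.12, adjusted p = 0.0132), and Rnf150 changed by 0.06. All 3 calls were lost without Zip13-KO replicate 1, and those of Tbc1d9 and Scoc also with the deposited value table.

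The genes whose values over the 6 arrays were most like Ucp1 were DXBay18, Ccdc191, Smim20, Haus1 and Efnb2, with Pearson r from 0.996 to 0.991. Of the deviations from the genotype means, Enpp1, Cplane1, Lmbrd1, Cdkn1a and DXBay18 were most like it, with r from 0.995 to 0.979. Ucp2 was nearest to Adck5, Smim3, Rpl32l, Fbxo30 and Serinc3 over all arrays (r from 0.999 to 0.995) and to Abca6, Phax, Adck5, Sun5 and Snhg5 by deviations (0.993 to 0.990). The brighter Ucp3 probe was nearest to Lrch4, Siglec1, 1600029O15Rik, E230029C05Rik and Arf6 (r from 0.998 to 0.997) and by deviations to Dis3l2, Lrch4, Cbarp, Kcnj16 and Ess2. Over all arrays, the changes were -0.67 for Lrch4, -1.15 for Siglec1, a surface lectin of macrophages, and -0.38 for 1600029O15Rik. E230029C05Rik changed by -1.32 and Arf6 by -0.52. The dimmer Ucp3 probe was nearest to Gcat, Dab2ip, Cdkn2b, Fabp12 and Chpt1 and by deviations to Spout1, Osgepl1, Tpte, Gcat and Mrps22. With 6 arrays and 15306 genes to choose from, such values are a description and were not tested.

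The arrays shared a slide and a scan, with 58.78% to 63.2% of spots well above background. Column 1 of the slide held the WT arrays with Zip13-KO replicate 1, and column 2 held the other Zip13-KO arrays. With the column as a term in limma, the difference is that of Zip13-KO replicate 1 from the WT arrays, and it was 3.76 for Ucp1 (adjusted p = 0.0794), -0.97 for Ucp2 (0.0708), -0.75 for the brighter (0.0785) and 1.57 for the dimmer Ucp3 probe (0.102, all adjusted p). No list kept a called gene in that fit, in which limma called 0 genes higher and 7 lower, against 1702 and 1377 at an unadjusted p under 0.05 and the same fold limit. Nothing in the labels says that mice of one number were littermates or that the samples were prepared separately, so p values measure the spread between these samples, which may be technical.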

How the data were processed

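RNA of whole iWAT was hybridized to 1-colour arrays (3 per genotype). The authors deposited scanner files with processed signal in intensity units (Feature Extraction 11.5.1.1, background-subtracted and detrended) and a value table of log2 intensities, quantile normalized between arrays. Here, log2 processed signal without control and outlier spots was averaged over the spots of a probe and quantile normalized. Probes that the scanner software rated well above background on each array of either genotype were kept and named through RefSeq accessions (GRCm38.p6, 28331 of 55681 probes), and the brightest probe stood for a gene. Genotypes were compared with limma 3.58.1 in R 4.3.3, with Benjamini-Hochberg adjustment over all genes (or all kept probes). Figures used matplotlib 3.10.9. The steps were tested on simulated data. The number of arrays limits the precision.

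The 3 genes and the lists were chosen with earlier results of these data known. The genes named are the uncoupling proteins, Slc39a13, the called genes with the 2 largest rises and falls of each list, fixed defining markers, the 5 genes most like each probe and the 2 tested neighbours on each side. Cited1, Tmem26, Tbx1, Tnfrsf9, Hoxc9, Zic1, Lhx8, P2rx5, Otop1 and Angptl4 were named after their values were seen. So were the adenylate cyclases, Prkaca, Esrrg, Esrra, Cebpa, the carriers beyond Slc25a20 and Slc25a10 and genes that did not pass the filter. Alternatives were other scaling, background correction, the deposited table, filters, probe rules, priors, the replicate number as a block, the slide column, a plain test with equal variances and leaving out each array. The background alternatives used the median signal. Protein sequences and probe positions were not used here.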

Additional observations from a re-analysis of the deposited data

How the results depend on the processing

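The changes of Ucp1, Ucp2 and the brighter Ucp3 probe kept their direction and stayed past the threshold under the other scalings, background corrections, filters and priors, the deposited table, the replicate block, the methods' t-test and without each array. Without each array in turn they ran from 4.54 to 5.86, from -0.95 to -0.73 and from -0.76 to -0.61, and Slc39a13 ran from -4.45 to -4.17. The exceptions were the probe, the slide column and the stricter limit of an adjusted p under 0.01. At that limit Ucp1 passed (limma adjusted p = 0.00883), and Ucp2 (0.0116) and the brighter Ucp3 probe (0.0115) did not. Ucp3 became 0.40 with the mean of its probes and 1.46 with the dimmer probe, which reversed its sign. With the slide column as a term, which leaves Zip13-KO replicate 1 against WT, Ucp1 was 3.76, Ucp2 -0.97, Ucp3 -0.75, the dimmer Ucp3 probe 1.57 and Acta1 -0.059, and the counts of all genes were 0 higher and 7 lower. The first rank of the Ucp1 rise did not hold throughout. Elovl3 rose more than Ucp1 without WT replicate 3 (Elovl3 5.25) and with the slide column as a term (3.96 against 3.76). The dimmer Ucp3 probe (1.12 to 1.67 without each array) missed the threshold in the methods' t-test after adjustment (1.46, adjusted p = 0.0607) and without Zip13-KO replicate 1 or 2. The 1576 genes called higher and 1282 called lower became 1007 and 721 with the methods' t-test, 707 and 505 at an adjusted p under 0.01, and 961 to 1671 and 782 to 1455 without each array, lowest without Zip13-KO replicate 1 (the cause was not tested). The replicate numbers did not pair the samples (correlations of the deviations of same-numbered arrays -0.02, 0.04 and -0.08). The replicate block gave 1278 and 1051 genes. Of 42 other called genes followed through the alternatives, leaving the slide column aside, 17 stayed called under all of them, 24 lost the call under at least 1, for causes that were not tested, and Elovl3 stayed called where tested but was dropped by the filter on all 6 arrays. Alternatives for the dimmer probe, the lists and these genes were chosen after seeing the data.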
